A study of Mus musculus with 32 samples.

Results

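The collagen genes were followed across 4 genotypes and 2 brain regions of the mouse. The set comprised every protein-coding gene of GENCODE M21 with a symbol of the form Col, number, a, number, which gave 44 genes of the 53715 in the deposited gene tables, of which 21890 were protein coding. All 44 had a row in both regions. Amygdala and hippocampus were both taken from each of 16 mice, all adult males, 4 of each genotype. WT mice carried intact *Kmt2a* and *Kdm5c*, *Kmt2a*-HET mice were *Kmt2a*+/-, *Kdm5c*-KO mice were hemizygous *Kdm5c*-/y, and double-mutant (DM) mice carried both lesions. Every mouse, controls included, was an F1 hybrid of a 129S1/SvImJ father from the *Kmt2a*+/- line and a C57BL/6J mother from the *Kdm5c*+/- line. The *Kmt2a* allele was made from a floxed allele with a Cre-ERT2 line and lacks internal exons. The *Kdm5c* lesion lies in internal exons too, so that a whole-gene count of either gene does not check the genotype. Mice are numbered 1 to 4 within a genotype, as in the labels, and replicates are separate animals.

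Collagens are secreted or membrane-bound proteins whose chains share a repeat of glycine followed by any pair of residues (Gly-X-Y), which lets the chains wind into a triple helix. Fibrillar collagens (types I, II, III, V, XI, XXIV and XXVII) build fibres, fibril-associated collagens (IX, XII, XIV, XVI, XIX, XX and XXII) decorate them or sit at tissue junctions, type IV forms the sheet of basement membranes, and type VI forms beaded filaments. In the adult brain, most fibrillar collagen is made by fibroblasts of the meninges and vessel walls and type IV by vascular cells, whereas some transmembrane and fibril-associated chains are made by neurons or glia. KMT2A is a writer and KDM5C an eraser of histone H3 lysine 4 methylation, a mark of promoters and enhancers, and the 4 genotypes ask whether loss of either one, or of both, changes gene expression.

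The repeat is visible in the genome as exons of 54 bases that encode 6 Gly-X-Y triplets. One such exon is printed for each of 5 genes on which the genotype results turn, read 5′ to 3′ on the coding strand of GRCm38, with the glycine codons (GGN) in capitals. They lie at chr9:20801068-20801121 on the minus strand (*Col5a3*, exon 15), chr2:180601582-180601635 on the plus strand (*Col9a3*, exon 5), chr15:71952523-71952576 on the minus strand (*Col22a1*, exon 13), chr4:130067219-130067272 on the plus strand (*Col16a1*, exon 24) and chr9:105918186-105918239 on the minus strand (*Col6a5*, exon 13).
Col5a3: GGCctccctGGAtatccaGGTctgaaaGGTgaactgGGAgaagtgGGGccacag
Col9a3: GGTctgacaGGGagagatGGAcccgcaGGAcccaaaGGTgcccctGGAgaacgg
Col22a1: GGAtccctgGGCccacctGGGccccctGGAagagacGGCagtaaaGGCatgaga
Col16a1: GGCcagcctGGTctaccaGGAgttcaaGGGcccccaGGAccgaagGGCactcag
Col6a5: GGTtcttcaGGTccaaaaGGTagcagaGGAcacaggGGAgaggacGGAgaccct

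The printed exons start with a glycine codon and end with a complete triplet, so that each can be read as a module of the helix. The classes differ in how long the repeat runs without a break. In *Col5a3*, the longest uninterrupted run held 337 triplets and 31 of 67 coding exons were 54 bases long. In the 11 fibrillar genes, the longest run had a median of 338 triplets (range 216 to 344). The runs were shorter in the 9 fibril-associated genes, with a median of 57 triplets (32 to 113). *Col9a3* and *Col22a1* reached 113 triplets, the longest of that class, *Col16a1* 57 and *Col6a5* 37.

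Promoter windows of 300 bases, from 250 before to 50 after the annotated start (RefSeq, GRCm38.p6), were given for 35 of the 44 genes (38 windows), and *Col9a3* and *Col22a1* were not among them. The GC box (GGGCGG, either strand) occurred in 23 of the 38 collagen windows and in 35.7% of 32851 windows of all genes, and the CCAAT box (CCAAT, either strand) in 13 of 38 against 37.4%. The TATA box (TATAAA, either strand) occurred in 5 against 13.6%, and the E-box (CACGTG) in 0 against 7.15%. Collagen windows held a median of 11.5 CpG dinucleotides against 7 over all windows, with 20 in *Col5a3*, 24 in *Col16a1* and 10 in *Col6a5*. The 250 bases before the *Col5a3* start, at chr9:20815068-20815317 on the minus strand, are printed because *Col5a3* had the clearest amygdala response of the fibrillar genes. The CCAAT box and the GC boxes that lie wholly inside these bases are in capitals (the GC boxes read CCGCCC on this strand). A match to these letters is not evidence of binding.
Col5a3 upstream: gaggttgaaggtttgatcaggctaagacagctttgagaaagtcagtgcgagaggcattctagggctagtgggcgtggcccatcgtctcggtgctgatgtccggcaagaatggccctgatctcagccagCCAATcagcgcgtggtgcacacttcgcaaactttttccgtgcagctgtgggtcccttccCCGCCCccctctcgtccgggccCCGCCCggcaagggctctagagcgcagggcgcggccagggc

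Amygdala libraries held 19215503 to 26033615 gene counts, and hippocampal libraries 19322262 to 27798980. The 44 collagen genes together took 0.0511 to 0.0688% and 0.0395 to 0.0744% of them. A count of 3 corresponded to 0.115 to 0.156 CPM in amygdala libraries and 0.108 to 0.155 CPM in hippocampal ones, a floor that covers counting error only. All 44 genes had at least 10 counts in at least 4 amygdala libraries, and 42 did in the hippocampus, with *Col10a1* and *Col28a1* below that level. Whole-gene counts of *Kdm5c*, which take in the exons outside the lesion, were 1300 ± 89.7 (SD, n = 4) in *Kdm5c*-KO against 1620 ± 329 in WT in the amygdala and 1254 ± 86.8 against 1586 ± 208 in the hippocampus. All 8 hippocampal neuron markers were higher in the hippocampus than in the amygdala, and 5 of 8 amygdala and striatal markers were lower. Some libraries held markers of the choroid plexus, the tissue that secretes cerebrospinal fluid. The summed level of 10 such markers was 1146 to 1962 normalised counts in 14 amygdala libraries, but 43930 in DM 1 and 8542 in DM 3. In the hippocampus it was 964 to 5376 in 10 libraries and over 6000 in *Kdm5c*-KO 1 (104200), DM 4 (28110), DM 2 (27820), *Kdm5c*-KO 4 (26170), WT 3 (25540) and *Kdm5c*-KO 3 (13380), and with loss of *Kdm5c* 7 of the 10 markers rose in that region. In the amygdala 1 of the 10 did, *Kl* (1.56 ± 0.47, p-adj 0.0615), and 6 had an unadjusted p under 0.05, while 4 rose in DM against WT and 0 were called in *Kdm5c*-KO against WT, with 0 at an unadjusted p under 0.05. Leaving the 6 out leaves 1 *Kdm5c*-KO mouse and 2 DM mice in the hippocampus, so that those fits assume the lone *Kdm5c*-KO mouse to vary like the other groups.

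Levels of different collagen genes can be compared only per length, as CPM per kilobase of exon. The length took in the exons of all annotated transcripts of a gene, such as 12947 bases for *Col25a1* and 6619 for *Col4a2*. Ranks by the length of the expressed transcript could differ. In the amygdala, *Col4a2* had the highest level, 11.3 ± 1.57 (SD over 16 libraries), followed by *Col6a1* (10.7 ± 3.50), *Col11a2* (6.81 ± 1.17), *Col25a1* (6.47 ± 1.54), *Col9a3* (6.07 ± 3.49) and *Col4a1* (5.95 ± 0.885). The first pair overlapped within 1 SD, and so did the next 4 genes. *Col4a1* and *Col4a2* encode the common chains of basement membranes, *Col6a1* a chain of beaded filaments and *Col25a1* a neuronal transmembrane collagen. In the hippocampus the order began with *Col4a2* (11.9 ± 2.03), *Col9a3* (7.44 ± 7.21), *Col4a1* (7.40 ± 1.13), *Col11a2* (7.23 ± 1.25), *Col6a1* (6.98 ± 4.28) and *Col25a1* (4.26 ± 1.15). The place of *Col9a3* depended on genotype. Its hippocampal level was 3.90 in WT and 3.15 in *Kmt2a*-HET against 13.4 in *Kdm5c*-KO and 9.27 in DM, and its median of 4.69 over the 16 libraries (range 2.54 to 30.6) lay below those of *Col11a2* (7.46), *Col4a1* (7.02) and *Col6a1* (5.34). In the amygdala it was 3.43 in WT and 9.99 in DM.

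By class, the 9 fibril-associated genes made up 22.8% of the summed per-length collagen level in the amygdala, the 6 type IV genes 21.6%, the 11 fibrillar genes 20.03%, the 6 type VI genes 16.9% and the 4 transmembrane genes 11.8%. Over all hippocampal libraries type IV took 28.1%, fibrillar genes 22.7%, fibril-associated genes 22.1%, type VI 12.4% and transmembrane genes 8.37%. The order of the classes differed between genotypes in both regions. In the WT amygdala the summed level was 18.8 CPM per kilobase for type IV, 15.2 for fibrillar and 14.3 for fibril-associated genes, whereas in DM it was 16.8, 18.1 and 23.6. In the hippocampus the fibril-associated genes stood at 11.9 in WT and 10.9 in *Kmt2a*-HET, under type IV at 19.4 and 20.99, but at 23.3 in *Kdm5c*-KO, above type IV at 21.1, and at 17.5 in DM, under type IV at 19.4. These class sums were not tested. Choroid plexus marker sums over 6000 were found in DM 1 and DM 3 of the amygdala. In the hippocampus they were found in 3 of the 4 *Kdm5c*-KO libraries and in DM 2, DM 4 and WT 3. Within the fibril-associated class, *Col9a3* alone stood at 3.43 in WT and 9.99 in DM in the amygdala. *Col5a3*, a minor chain of type V collagen, ranked 18 of 44 in the amygdala at 0.908 ± 0.287 and 23 of 44 in the hippocampus at 0.600 ± 0.160 CPM per kilobase. The lowest levels were those of *Col4a3* in the amygdala (0.0719) and *Col10a1* in the hippocampus (0.0296).

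**Figure D1:**
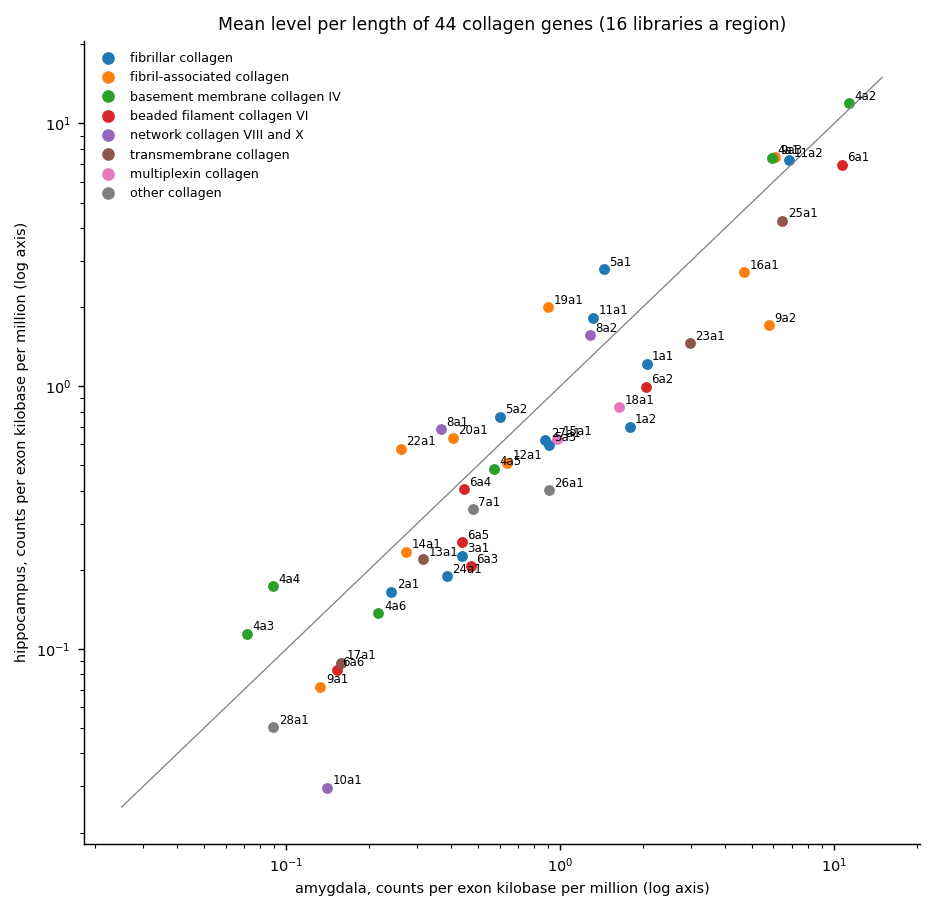
Mean level of each of the 44 collagen genes, in CPM per kilobase of exon, in the amygdala (x axis) and the hippocampus (y axis), both log axes, coloured by class, with a line of equal levels. *Col4a2* is highest in both regions (11.3 and 11.9), and *Col5a3* lies at 0.908 and 0.600.

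The first question was which collagen genes responded to loss of *Kdm5c*. In the amygdala, *Kdm5c*-KO differed from WT in 3 of 44 collagen genes at a p-adj under 0.1 (DESeq2 Wald test, Benjamini-Hochberg adjustment over all genes), where 0.756% of 19056 genes were called. *Col5a3*, *Col9a3* and *Col16a1* rose. DM differed from WT in 4 (background 0.99%), *Col5a3*, *Col9a3*, *Col8a2* and *Col6a5*, and from *Kmt2a*-HET in 3 (0.805%), *Col5a3*, *Col9a3* and *Col6a5*. All of these rose. When the 8 *Kdm5c*-deficient mice (*Kdm5c*-KO and DM) were set against the 8 *Kdm5c*-intact mice (WT and *Kmt2a*-HET), 6 collagen genes rose and 0 fell, against 1.66% of 20185 genes called in either direction (1.38% higher, 0.277% lower). These were *Col5a3*, *Col11a2*, *Col9a3*, *Col16a1*, *Col6a5* and *Col7a1*. The median log2 fold change of the 44 genes was 0.05, against -0.01 over all genes tested. These comparisons share libraries and are not independent of each other.

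In the hippocampus, 1 of 43 tested collagen genes was called in *Kdm5c*-KO against WT (background 1.01%), in DM against WT (0.881%) and in DM against *Kmt2a*-HET (0.606%). It was *Col22a1* each time. Over the 8 *Kdm5c*-deficient against 8 *Kdm5c*-intact mice, *Col22a1*, *Col9a3*, *Col4a4* and *Col8a1* rose and *Col12a1* fell, 5 of 44 against a background of 2.42% of 20411 genes. The median of the 44 genes was 0.09, with 26 above 0, but -0.13 (13 above 0) with the choroid plexus marker sum as a covariate and -0.35 (10 above 0) without the 6 marked libraries. In bulk tissue a change in the number of cells of a type and a change in RNA per cell cannot be told apart. With size factors taken from spike-in RNA in place of the DESeq2 size factors, 0 collagen genes were called in any genotype comparison by DESeq2. With loss of *Kdm5c*, 42 of 29832 amygdala genes and 19 of 29247 hippocampal genes were then called. The folds of *Col5a3* in the amygdala (0.71) and *Col22a1* in the hippocampus (1.32) stayed near those given below.

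**Figure D2:**
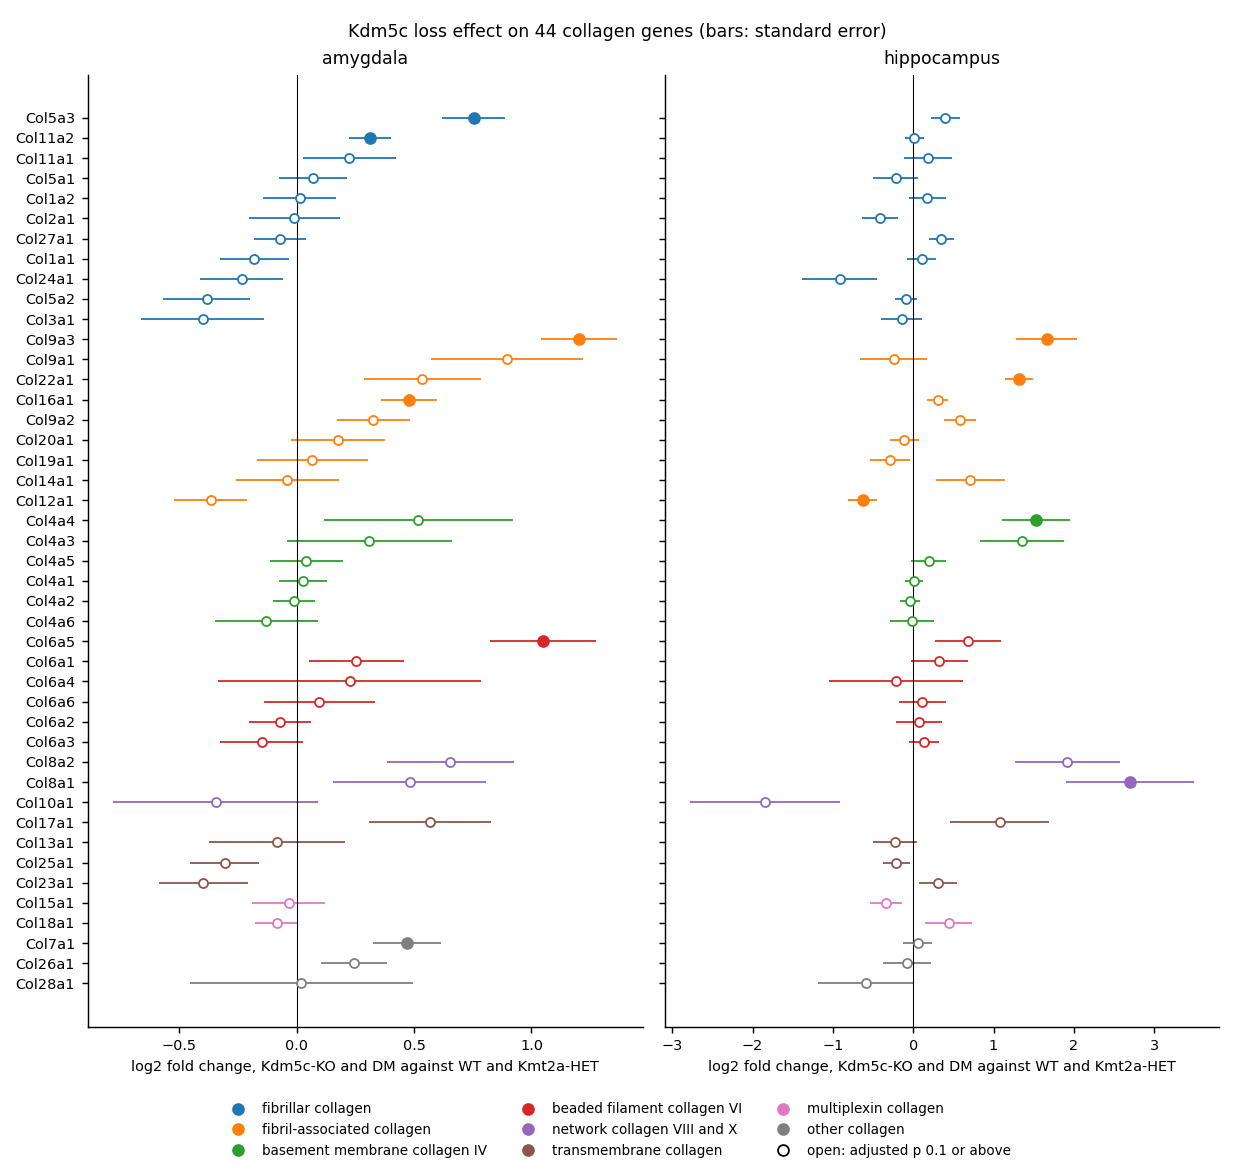
Log2 fold change of each collagen gene with loss of *Kdm5c* (8 *Kdm5c*-deficient against 8 *Kdm5c*-intact mice), with bars for the standard error, in the amygdala and the hippocampus (the x scales differ). Filled points have a p-adj under 0.1: 6 higher genes in the amygdala, and 4 higher genes and 1 lower gene in the hippocampus.

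*Col5a3* was the fibrillar gene with the clearest response. It lies at chr9:20770050-20815067 (GRCm38, minus strand). In the amygdala its normalised counts were 94.95, 80.6, 81.9 and 119 for WT mice 1 to 4, with 110, 98.2, 160 and 92.7 for *Kmt2a*-HET. For *Kdm5c*-KO they were 176, 163, 157 and 189, with 170, 160, 171 and 221 for DM. Every *Kdm5c*-deficient mouse was above every WT mouse, as 2.65% of genes tested in *Kdm5c*-KO against WT and 3.31% in DM against WT also showed without overlap in either direction, and 1 *Kmt2a*-HET mouse, number 3, reached the range of the deficient mice. The log2 fold change was 0.86 ± 0.19 (SE, p-adj 0.0025) in *Kdm5c*-KO and 0.94 ± 0.19 (p-adj 0.000529) in DM against WT. Over both *Kmt2a* states it was 0.75 ± 0.13 (p-adj 6.86e-06), with 8 of 8 deficient mice above the mean of the intact ones. DM was also higher than *Kmt2a*-HET (0.64 ± 0.19, p-adj 0.0853), but this call had a p-adj of 0.12 to 0.459 when any mouse of either group other than *Kmt2a*-HET 3 was left out, and of 0.374 with edgeR. It was 0.71 (p-adj 0.238) with the choroid plexus marker sum as a covariate and 0.72 (p-adj 0.377) without DM 1 and 3, the 2 amygdala libraries with a marker sum over 6000.

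*Col5a3* was not called for *Kmt2a* heterozygosity. *Kmt2a*-HET differed from WT by 0.29 on the log2 scale in the amygdala (95% interval -0.09 to 0.68, p-adj 1), and DM from *Kdm5c*-KO by 0.08 (-0.29 to 0.44, p-adj 1). In the hippocampus the *Col5a3* counts were 99.0, 48.9, 72.5 and 60.2 (WT), 123, 59.98, 115 and 73.6 (*Kmt2a*-HET), 115, 92.8, 113 and 103 (*Kdm5c*-KO) and 99.0, 113, 130 and 85.5 (DM). There the groups overlapped, with WT 1 inside the range of the mutants. The log2 fold changes were 0.60 ± 0.25 (p-adj 0.426) in *Kdm5c*-KO and 0.61 ± 0.25 (p-adj 0.427) in DM, and 0.40 ± 0.18 (p-adj 0.367) over both *Kmt2a* states, none past the threshold. The difference of the effect between the regions was not called either. Nearly all *Col5a3* counts were assigned to 1 transcript, ENSMUST00000004201.7, with 168 of 171 normalised counts in the amygdala of *Kdm5c*-KO.

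**Figure D3:**
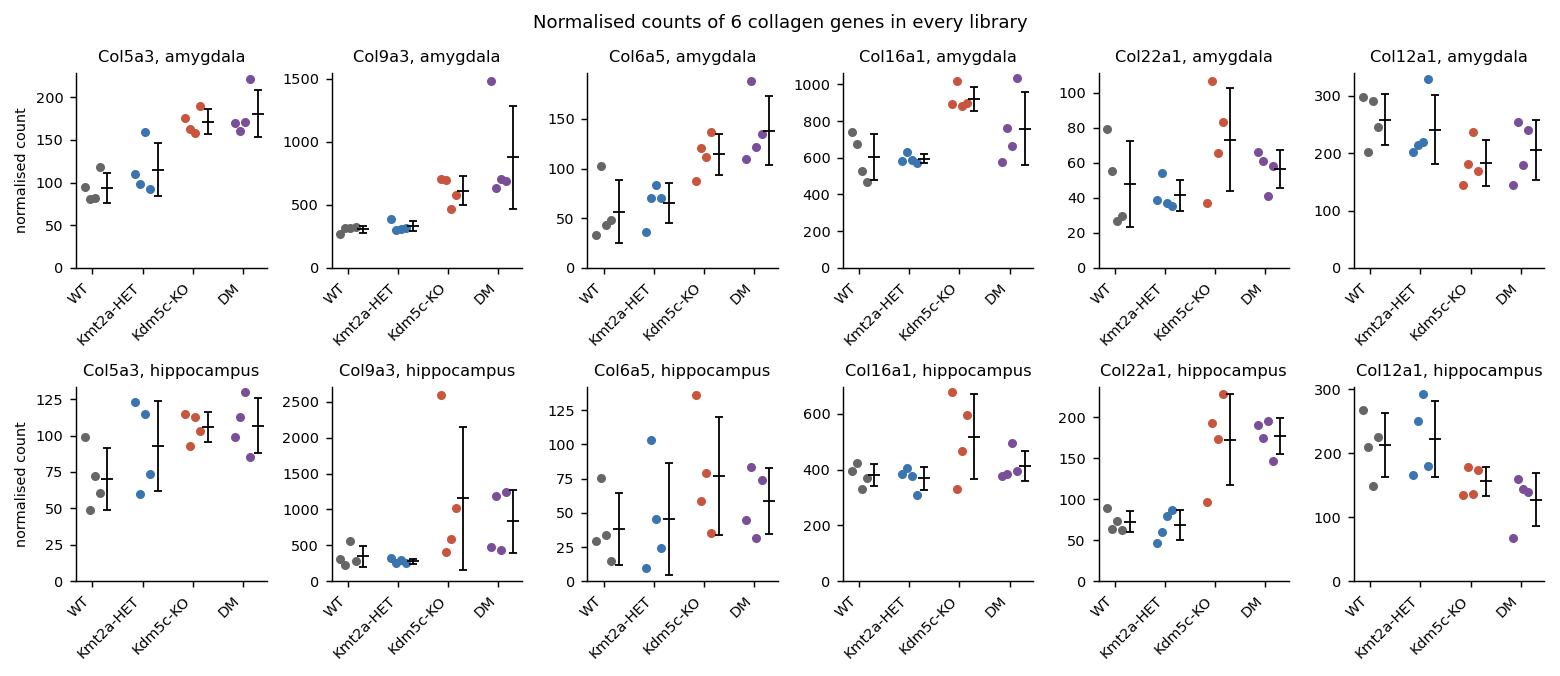
Normalised counts of *Col5a3*, *Col9a3*, *Col6a5*, *Col16a1*, *Col22a1* and *Col12a1* in each library of the 4 genotypes, with mean ± SD of 4 mice, in the amygdala and the hippocampus. *Col5a3* is at 157 or more in all 8 *Kdm5c*-deficient amygdala libraries and at 119 or less in WT, and *Col22a1* separates the same genotypes in the hippocampus.

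Of the other 10 fibrillar genes, *Col11a2*, which encodes a type XI chain, was the other one that rose in the amygdala over both *Kmt2a* states. Its normalised counts were 816 to 966 (WT), 893 to 1071 (*Kmt2a*-HET), 942 to 1334 (*Kdm5c*-KO) and 1002 to 1367 (DM). The ranges overlapped and the change was small, 0.31 ± 0.09 (p-adj 0.0406). The p-adj was 0.103 to 0.161 without DM 2, DM 4, *Kdm5c*-KO 2, *Kdm5c*-KO 4, *Kmt2a*-HET 3, *Kmt2a*-HET 4 or WT 3, and 0.129 with edgeR. The median of the 11 fibrillar genes was -0.01 in the amygdala. In the hippocampus it was 0.02, and 0 of 11 were called by DESeq2 and 3 had an unadjusted p under 0.05, as 6.79% of all genes did.

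Among the fibril-associated genes, *Col9a3* was called higher with loss of *Kdm5c* in both regions. It encodes a chain of type IX collagen, which coats cartilage fibrils, and lies at chr2:180597790-180622189 on the plus strand. Amygdala counts were 266, 315, 318 and 323 (WT), 391, 305, 311 and 316 (*Kmt2a*-HET), 703, 701, 465 and 578 (*Kdm5c*-KO) and 1484, 631, 702 and 688 (DM). The 8 *Kdm5c*-deficient mice were all above the 8 intact mice, a separation shown by 0.411% of the genes tested in that comparison. The log2 fold change was 1.002 ± 0.23 (p-adj 0.00375) in *Kdm5c*-KO, 1.52 ± 0.23 (p-adj 6e-08) in DM and 1.20 ± 0.16 (p-adj 8.38e-11) over both *Kmt2a* states. DM 1, the library with the highest choroid plexus marker sum of the amygdala, had the highest count, and with the marker sum as a covariate the last value was 0.96 (p-adj 1.4e-11). Without DM 1 and 3 it was 0.997 (p-adj 1.96e-14).

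Hippocampal counts of *Col9a3* were 313, 226, 557 and 286 (WT), 322, 252, 291 and 253 (*Kmt2a*-HET), 2592, 405, 596 and 1027 (*Kdm5c*-KO) and 473, 1184, 433 and 1249 (DM). Every deficient mouse was above every intact mouse other than WT 3. The change over both *Kmt2a* states was 1.66 ± 0.38 (p-adj 0.00191). Counts of *Col9a3* also followed the choroid plexus markers in this region, at 557 to 2592 in the 6 libraries over the limit of 6000 and 226 to 473 in the other 10. With the marker sum as a covariate the change was 0.84 (p-adj 4.47e-06). It was 0.63 with the 6 libraries left out, a fit with 3 deficient mice left, of which *Kdm5c*-KO 2 was alone in its genotype. In these fits *Col9a3* was also called, beside *Col22a1*, in DM against WT and DM against *Kmt2a*-HET. The part of the choroid plexus in the remainder was not tested.

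The 3′ end of *Col9a3* shares 234 exon bases (chr2:180621956-180622189, 6.07% of its exon bases) with *Tcfl5*, a transcription factor gene on the opposite strand. *Tcfl5* rose too with loss of *Kdm5c*, by 1.91 in the amygdala (p-adj 2.67e-11) and 3.14 in the hippocampus (p-adj 1.29e-05). Its amygdala counts were 49.5 ± 23.3 in WT and 118 ± 41.7 in *Kdm5c*-KO (SD, n = 4), against 305 ± 26.5 and 612 ± 114 for *Col9a3*. Whether strand was used in counting is not given in the sources used here, and reads shared by the pair were not tested. The partner chains of *Col9a3* were not called. *Col9a2* changed by 0.33 ± 0.16 (p-adj 0.586) in the amygdala and 0.58 ± 0.20 (p-adj 0.126) in the hippocampus. *Col9a1*, named after its values were seen, changed by 0.90 ± 0.32 (p-adj 0.219) in the amygdala and by -0.24 ± 0.42 (p-adj 0.981) in the hippocampus.

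*Col22a1* gave the clearest hippocampal response. It encodes a collagen of tissue junctions and lies at chr15:71795795-72034227 on the minus strand. Hippocampal counts were 90.0, 64.2, 73.5 and 62.0 (WT), 47.1, 59.98, 80.2 and 87.1 (*Kmt2a*-HET), 96.6, 194, 173 and 228 (*Kdm5c*-KO) and 190, 175, 196 and 147 (DM). All 8 deficient mice were above all 8 intact mice, which 0.323% of the genes tested in this comparison showed, although *Kdm5c*-KO 1 was only just above the highest WT. The log2 fold change was 1.26 ± 0.25 (p-adj 0.000197) in *Kdm5c*-KO, 1.30 ± 0.25 (p-adj 9.78e-05) in DM and 1.37 ± 0.25 (p-adj 3.6e-05) in DM against *Kmt2a*-HET. Over both *Kmt2a* states it was 1.32 ± 0.18 (p-adj 5.78e-11). Counts were 73.5 to 228 in the 6 libraries with choroid plexus markers, where WT 3 was the only intact mouse, and 47.1 to 196 in the other 10. The value was 1.42 (p-adj 7.39e-11) with the marker sum as a covariate. It was 1.47 without the 6 libraries, a fit with 3 deficient mice left, of which *Kdm5c*-KO 2 was alone in its genotype.

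In the amygdala *Col22a1* stood at 47.8 ± 24.5 (WT), 41.4 ± 8.66 (*Kmt2a*-HET), 73.2 ± 29.5 (*Kdm5c*-KO) and 56.5 ± 10.9 (DM). The ranges overlapped and the change of 0.54 ± 0.25 did not pass the test (p-adj 0.564). The effect of *Kdm5c* loss was 0.78 ± 0.30 larger on the log2 scale in the hippocampus than in the amygdala, with an unadjusted p of 0.0104 and a p-adj of 1, so that a regional difference was not established. Over the 44 genes that difference was called for 0, with 5 at an unadjusted p under 0.05 (DESeq2, background 0.0536% called and 2.49% at that unadjusted p).

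The transcript table divides *Col22a1* between 2 long coding transcripts. In the hippocampus ENSMUST00000159993.7 (8809 bases) held 34.5 ± 7.53 normalised counts (WT), 42.4 ± 28.9 (*Kmt2a*-HET), 163 ± 67.3 (*Kdm5c*-KO) and 163 ± 19.3 (DM). ENSMUST00000229585.1 (6915 bases) held 37.2 ± 17.5, 26.2 ± 21.2, 6.93 ± 13.8 and 7.44 ± 7.87 in the same order. In WT the division was near even, whereas in *Kdm5c*-KO 3 of 4 mice had at most 0.00989 counts on the second transcript, and mouse 1 had 27.7. These divisions are estimates from reads that the transcripts share, and no test was made of them.

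**Figure D4:**
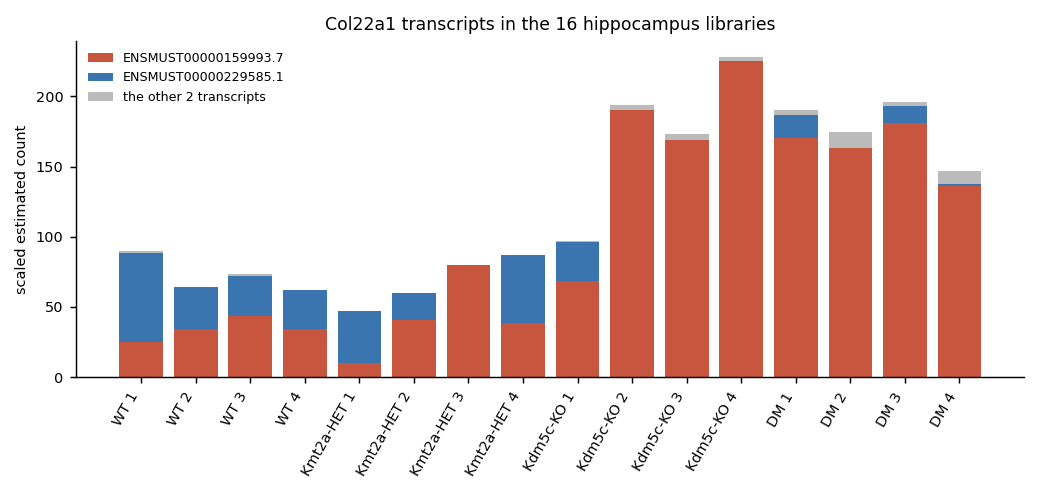
Normalised counts of *Col22a1* in each hippocampal library, stacked by annotated transcript. The 8809-base transcript averages 34.5 in WT and 163 in *Kdm5c*-KO and in DM, and the 6915-base transcript 37.2, 6.93 and 7.44.

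*Col16a1*, a widely expressed fibril-associated collagen at chr4:130047840-130099283 on the plus strand, rose in the amygdala. Counts were 742, 677, 527 and 470 (WT), 584, 633, 590 and 574 (*Kmt2a*-HET), 893, 1017, 880 and 896 (*Kdm5c*-KO) and 577, 761, 663 and 1032 (DM). *Kdm5c*-KO lay above all WT and *Kmt2a*-HET mice, and DM overlapped them. The log2 fold change was 0.61 ± 0.17 in *Kdm5c*-KO (p-adj 0.0491) and 0.48 ± 0.12 over both *Kmt2a* states (p-adj 0.00667). The *Kdm5c*-KO call had a p-adj of 0.129 to 0.387 without *Kdm5c*-KO 1, 2 or 4 or WT 3 or 4, and 0.167 with edgeR. In the hippocampus the change over both *Kmt2a* states was 0.30 ± 0.13 (p-adj 0.331).

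*Col12a1*, which bridges fibrils to other matrix proteins, was the only collagen gene called lower with loss of *Kdm5c* in the DESeq2 fits. Its hippocampal counts were 268, 209, 148 and 226 (WT), 166, 250, 293 and 180 (*Kmt2a*-HET), 135, 178, 136 and 173 (*Kdm5c*-KO) and 66.8, 160, 144 and 139 (DM). The deficient mice were all below the mean of the intact mice, but WT 3 and *Kmt2a*-HET 1 lay within their range. The change was -0.63 ± 0.18 (p-adj 0.0347). It was -0.56 (p-adj 0.109) without WT 1, -0.63 (p-adj 0.113) with edgeR, -0.63 (p-adj 0.194) with the choroid plexus marker sum as a covariate and -0.73 (p-adj 0.424) without the 6 libraries with choroid plexus markers. In the amygdala it was -0.37 ± 0.15 (p-adj 0.425). Across the 9 fibril-associated genes, 2 rose in the amygdala (median 0.33) and 2 rose and 1 fell in the hippocampus (median 0.30).

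Outside the fibril-forming classes, *Col6a5*, a type VI chain at chr9:105856078-105960643 on the minus strand, rose in the amygdala. Counts were 32.6, 103, 43.1 and 47.8 (WT), 36.4, 70.0, 83.3 and 70.4 (*Kmt2a*-HET), 87.9, 121, 112 and 136 (*Kdm5c*-KO) and 109, 188, 121 and 135 (DM). All deficient mice were above all intact mice other than WT 2. The change was 1.29 ± 0.32 in DM against WT (p-adj 0.0125), 1.09 ± 0.32 in DM against *Kmt2a*-HET (p-adj 0.0799) and 1.05 ± 0.23 over both *Kmt2a* states (p-adj 0.000569). DM against WT had a p-adj of 0.108 without DM 2, and DM against *Kmt2a*-HET one of 0.106 to 0.446 without any mouse other than *Kmt2a*-HET 3. The latter value was 1.31 (p-adj 0.166) without DM 1 and 3. In the hippocampus the means were 38.2 ± 26.3, 45.8 ± 40.9, 77.1 ± 43.0 and 58.4 ± 24.3 in WT, *Kmt2a*-HET, *Kdm5c*-KO and DM, with 0 of 6 type VI genes called by DESeq2 and 0 at an unadjusted p under 0.05.

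*Col7a1*, the anchoring fibril collagen of skin, had amygdala counts of 91.6 to 104 (WT), 80.7 to 108 (*Kmt2a*-HET), 125 to 166 (*Kdm5c*-KO) and 77.6 to 155 (DM). *Kdm5c*-KO was above both intact groups, and DM overlapped them. The rise of 0.47 ± 0.14 over both *Kmt2a* states (p-adj 0.0752) had a p-adj of 0.124 to 0.253 without DM 2, DM 4, *Kdm5c*-KO 2, *Kdm5c*-KO 4, *Kmt2a*-HET 1, *Kmt2a*-HET 2, *Kmt2a*-HET 4, WT 2 or WT 3, and 0.252 with edgeR. In the hippocampus its means were between 73.2 and 91.4 in the 4 genotypes.

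The remaining calls went with the choroid plexus markers. *Col8a1* and *Col8a2* encode type VIII chains, which form hexagonal networks. *Col8a1* had hippocampal counts of 67.3 to 789 in the 6 libraries with a marker sum over 6000 and 7.01 to 59.4 in the other 10, with no overlap. Its change with loss of *Kdm5c* was 2.70 ± 0.80 (p-adj 0.0436), but -0.20 (p-adj 1) with the marker sum as a covariate and -1.17 (p-adj 0.695) without the 6 libraries. It was 1.71 (p-adj 0.373) without *Kdm5c*-KO 1, 2.35 (p-adj 0.187) without DM 4, 2.5 (p-adj 0.131) without DM 2 and 2.59 (p-adj 0.115) without WT 2. *Col4a4*, a minor type IV chain, had 174 counts in *Kdm5c*-KO 1, 97.0 in DM 4 and 83.3 in DM 2 and at most 35.7 in the other 13 libraries. Its change was 1.53 ± 0.42 (p-adj 0.0226), 0.56 (p-adj 1) with the covariate and 0.34 (p-adj 1) without the 6 libraries, and it was 0.98 (p-adj 0.176) without *Kdm5c*-KO 1 and 1.34 (p-adj 0.114) without DM 4. *Col8a2* in the amygdala was 504 in DM 1, 218 in DM 3 and 67.0 to 149 in the other 14 libraries. It was called in DM against WT at 1.55 ± 0.38 (p-adj 0.0118), and the value was 0.86 (p-adj 0.314) without DM 1, 0.45 (p-adj 1) without DM 1 and 3 and 0.44 (p-adj 0.999) with the covariate. In the other classes, 0 of 6 type IV, 0 of 4 transmembrane, 0 of 3 network and 0 of 2 multiplexin genes were called by DESeq2 in the amygdala with loss of *Kdm5c* over both *Kmt2a* states, with 0, 3, 1 and 0 at an unadjusted p under 0.05 (5.25% of all genes). In the hippocampus 0 of 4 transmembrane genes and 0 of 2 multiplexins were called in that comparison, with 0 and 0. The 6 amygdala genes that rose over both *Kmt2a* states were all called with the covariate as well.

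**Figure D5:**
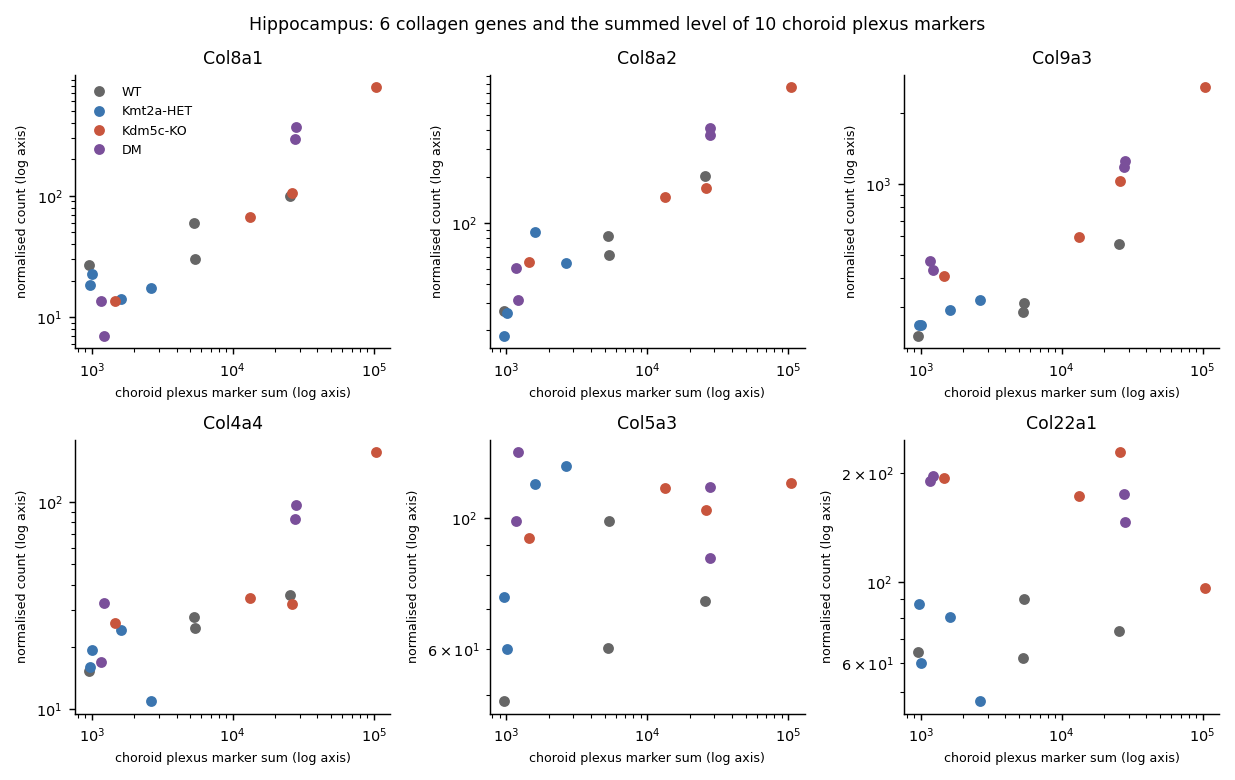
Hippocampal normalised counts of *Col8a1*, *Col8a2*, *Col9a3*, *Col4a4*, *Col5a3* and *Col22a1* against the summed choroid plexus markers of the same library (log axes), by genotype. The 6 libraries over 6000 hold the highest *Col8a1*, *Col8a2* and *Col9a3* values. *Col22a1* parts by genotype on both sides of that limit, but WT 3 (73.5) is the only *Kdm5c*-intact library over it.

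The second question was whether *Kmt2a* heterozygosity changed collagen genes, alone or on top of *Kdm5c* loss. *Kmt2a*-HET against WT gave 0 called collagen genes in either region by DESeq2 (background 0.00329% and 0.0%), and edgeR gave 0. At an unadjusted p under 0.05 in DESeq2 there were 3 (2 higher, 1 lower) and 4 (1 higher, 3 lower), against 3.05% and 2.4% of all genes. With the choroid plexus covariate there were 5 (3 higher, 2 lower) and 7 (7 higher, 0 lower), against 2.92% and 2.54%. The amygdala fit without DM 1 and 3 gave 5 (2.87%). DM against *Kdm5c*-KO gave 0 (0.00329% and 0.0067%), with 7 (6 higher, 1 lower) and 5 (1 higher, 4 lower) at an unadjusted p under 0.05, where 2.29% and 4.53% of all genes were, and 0 by edgeR. With the choroid plexus covariate these were 2 and 3 (1.17% and 3.35%), and without the marked libraries 4 and 0 (1.26% and 1.22%). Testing whether DM departed from the summed effects of each single mutant gave 0 as well (0.00329% and 0.0%), with 3 and 2 at an unadjusted p under 0.05 (2.82% and 1.91%) and 0 by edgeR. When the 8 *Kmt2a*+/- mice were set against the 8 *Kmt2a*+/+ mice, 0 collagen genes were called in the amygdala, where 0 of 30355 genes were (0.0%), and 7 collagen genes had an unadjusted p under 0.05 (5 higher, 2 lower, against 2.92% of all genes) and 0 were called by edgeR. The 7 became 3 with the covariate (1.76%) and 4 without DM 1 and 3 (1.73%). These counts do not show that the genotypes were alike.

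In the hippocampus the same comparison called *Col23a1*, a transmembrane collagen, in a background of 15 of 17090 genes (0.0878%). Its counts were 159, 183, 194 and 299 (WT), 121, 105, 192 and 67.5 (*Kmt2a*-HET), 384, 134, 362 and 345 (*Kdm5c*-KO) and 80.4, 154, 150 and 127 (DM). *Kdm5c*-KO 2 lay within the *Kmt2a*+/- range and *Kmt2a*-HET 3 within the WT range, so that the groups overlapped. The change was -1.02 ± 0.23 (p-adj 0.0494). The p-adj was 0.12 to 0.52 without DM 2, 3 or 4, *Kdm5c*-KO 1, 3 or 4, *Kmt2a*-HET 1, 2 or 4, or WT 3 or 4, and 0.684 with edgeR. The 3 *Kdm5c*-KO mice with high counts, 1, 3 and 4, were also libraries with a choroid plexus marker sum over 6000. With the marker sum as a covariate the value was -0.79 (p-adj 0.447), and without the 6 libraries over 6000 it was -0.52 (p-adj 1).

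The third comparison was between the regions, over all genotypes. Of the 44 genes, 26 were lower and 11 higher in the hippocampus than in the amygdala, against 46.3% of 23650 genes called (22.4% higher, 23.9% lower). This fit did not pair the regions of a mouse, and with the mouse as a block 27 were lower and 10 higher. The lower genes included 5 of 6 type VI genes, 4 of 4 transmembrane genes, 7 of 11 fibrillar genes and both multiplexins, the basement membrane collagens XV and XVIII. Of the type IV genes, 4 of 6 were higher and 1 lower, but *Col4a3* changed sign with the choroid plexus covariate and without the marked libraries. *Col4a4* had no unadjusted p under 0.05 (DESeq2) in either of these fits, and *Col4a2* had none without the marked libraries. Within single genotypes 16 (WT, background 21.2%), 22 (*Kmt2a*-HET, 29.6%), 23 (*Kdm5c*-KO, 24.0%) and 22 (DM, 27.1%) were called. In *Kdm5c*-KO the split of 10 higher and 13 lower became 7 and 17 with the choroid plexus covariate, 1 and 19 without the marked libraries and 6 and 14 with the mouse as a block, and *Col4a3*, *Col8a1*, *Col8a2* and *Col9a3* changed sign in the first pair of these fits. In DM the split of 5 and 17 became 1 and 19 without the marked libraries. With spike-in size factors the median of all genes tested moved to 0.64 in favour of the hippocampus, 14 collagen genes were called higher and 3 lower, where 13131 of 23054 genes were higher and 1017 lower, and 10 of the 37 called genes changed sign, *Col5a3*, *Col6a1* and *Col1a1* among them. The regional directions below are therefore relative to the DESeq2 size factors.

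*Col9a2*, a type IX chain, had the smallest p-adj between regions, at -1.68 ± 0.13 on the log2 scale (p-adj 1.9e-38), while the scarce *Col10a1* had a larger difference of -2.77 ± 0.45 (p-adj 7.81e-09). The type I chain *Col1a2* was lower in the hippocampus, at -1.24 ± 0.15 (p-adj 2.17e-16, but 0.0552 with spike-in size factors at -0.59), the type VI chain *Col6a3* at -1.08 ± 0.13 (p-adj 4.57e-16) and *Col23a1* at -1.02 ± 0.16 (p-adj 7.17e-10). With spike-in size factors *Col9a2* stayed lower at -1.04 (p-adj 0.00176), while *Col6a3* (-0.47, p-adj 0.106) and *Col23a1* (-0.27, p-adj 0.427) were not called. *Col16a1* was lower at -0.67 ± 0.09 (p-adj 3.45e-13), a difference of -0.05 (p-adj 0.892) with spike-in size factors, and *Col5a3* was lower at -0.45 ± 0.11 (p-adj 0.000124), a direction that turned with them. In the other direction, *Col19a1*, a fibril-associated collagen made by neurons, was higher by 1.25 ± 0.18 (p-adj 9.68e-11). *Col22a1* was higher by 1.15 ± 0.15 (p-adj 4.51e-13) and *Col5a1*, a main chain of type V collagen, by 1.02 ± 0.15 (p-adj 5.71e-11). These 3 genes were also called higher with spike-in size factors (1.93, 1.77 and 1.78 in the same order). The type V chains *Col5a1* and *Col5a3* lay in opposite directions under the DESeq2 size factors. *Col9a3*, *Col8a1*, *Col8a2*, *Col12a1*, *Col4a5*, *Col14a1* and *Col6a4* were not called in the main fit. With the choroid plexus covariate, *Col9a3*, *Col8a1*, *Col8a2* and *Col14a1* had an unadjusted p under 0.05 (DESeq2), as 34.5% of all genes did. The summed level of 14 meningeal and perivascular fibroblast markers was 4268 to 9012 normalised counts in amygdala libraries and 3002 to 12940 in hippocampal libraries, with 9 of the 14 genes lower and 3 higher in the hippocampus. Their part in the regional differences was not tested.

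Genes that act on collagen were read from lists by role. Of 20 genes for collagen modification and secretion, *P3h4*, a member of the prolyl 3-hydroxylase complex, rose with loss of *Kdm5c* in both regions, from 485 ± 65.7 to 600 ± 74.1 in the amygdala (0.31 ± 0.09, p-adj 0.0657) and from 299.8 ± 44.98 to 411 ± 56.9 in the hippocampus (0.45 ± 0.11, p-adj 0.00446), with SD over 8 mice a side. The other 19 were not called in either region, and the list medians were -0.00027 and 0.10. Of 13 genes for processing and crosslinking, *Loxl1*, a lysyl oxidase that crosslinks collagen and elastin, rose from 121 ± 18.8 to 207 ± 44.5 in the amygdala (0.77 ± 0.15, p-adj 4.83e-05) and from 110 ± 51.1 to 238 ± 53.4 in the hippocampus (1.10 ± 0.22, p-adj 0.000202). *Bmp1*, which cleaves procollagen, fell in the hippocampus by 0.35 on the log2 scale (p-adj 0.0176). The list medians were -0.10 and 0.42.

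Of 14 partners in the basement membrane, *Lamb1*, a laminin chain, rose in the amygdala (0.37 ± 0.10, p-adj 0.0152), and 0 were called in the hippocampus by DESeq2, with 3 at an unadjusted p under 0.05. The same shares over all genes apply to these lists, 1.66% and 2.42% called and 5.25% and 6.79% at that unadjusted p. Of 10 collagen receptors, 0 were called in either region, with 0 and 1 at an unadjusted p under 0.05. Of 14 fibroblast markers, *Lum* fell in the amygdala (-1.89 ± 0.34, p-adj 9.15e-06). In the hippocampus *Ogn* fell (-1.49 ± 0.35, p-adj 0.00285) while *Islr* (0.53 ± 0.17, p-adj 0.0931) and *Bmp6* (0.84 ± 0.25, p-adj 0.0427) rose. *Bmp6* stood at 425 ± 253 in deficient and 235 ± 43.4 in intact mice (SD over 8 a side), with a highest value of 1002. The list calls of this and the preceding paragraph are those of the main fit, and the part of the choroid plexus in them was not tested. *Lum* and *Ogn* encode small proteoglycans that bind collagen fibrils. The summed fibroblast markers were 12940 in *Kdm5c*-KO 1 of the hippocampus against 3002 to 6456 in the other 15 libraries. Of 10 pericyte and smooth muscle markers and 10 endothelial markers, 0 were called in either region by DESeq2, with at most 1 at an unadjusted p under 0.05. Of 8 hippocampal neuron markers *Spink8* rose in the hippocampus (1.18 ± 0.16, p-adj 5.43e-10), and of 8 amygdala and striatal markers 0 were called, with 2 at an unadjusted p under 0.05 in each region. The summed amygdala and striatal markers were 11020 in *Kdm5c*-KO 1 of the hippocampus against 3080 to 5408 in the other 15 libraries.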

How the data were processed

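RNA from 32 libraries (16 mice, 2 regions) was sequenced with an oligo-dT directional kit and ERCC spike-in RNA. According to the study's methods the authors aligned reads with STAR 2.5.3a to mm10, kept unique reads, removed duplicates and used Subread 1.5.0 and DESeq2 1.14.1. The deposited gene and transcript tables hold expected counts, not normalised, with 1 column per library. The estimator behind them, the annotation release and the strand setting of counting are not given in the sources used here. Expected counts were rounded to whole numbers for the tests. Symbols and types came from GENCODE M21, which matched 53620 of 53715 gene identifiers, and 92 ERCC sequences were set aside.

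Genotypes were compared with the DESeq2 1.42.0 (R 4.3.3) Wald test over the 16 libraries of a region and regions over all 32, with Benjamini-Hochberg adjustment over all genes, a p-adj threshold of 0.1 and unshrunken fold changes. The script was tested on simulated data. Both regions came from the same mouse by the labels, and paired libraries deviated together (median correlation 0.194 over 16 pairs, 14 over 0.1, against -0.0896 over 48 other pairs). Genes were named if they were *Col5a3*, were called, had one of the 8 strongest regional differences or one of the 6 highest levels, or were class or list examples by rule. The members and lists were chosen with earlier results of these data known. Alternatives were edgeR 4.0.16 quasi-likelihood with TMM, TMM and spike-in size factors, a low-count filter (10 counts in 4 libraries), a p-adj of 0.05, a replicate block and leaving out libraries. A choroid plexus covariate and leaving out libraries with a marker sum over 6000 were added after seeing the data. The 95% intervals are those of the DESeq2 fit.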

Additional observations from a re-analysis of the deposited data

Results flagged for a closer look

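In 11 of 96 groups of 4 mice tested, over the collagen genes called in a genotype comparison, 1 mouse stood further from its group than Dixon's 95% limit for 4 samples, where chance flags about 1 group in 20. In the amygdala these were *Col9a3* in WT 1 (266 normalised counts), *Kmt2a*-HET 1 (391.2) and DM 1 (1484), *Col16a1* in *Kdm5c*-KO 2 (1017), *Col12a1* in *Kmt2a*-HET 4 (329.9) and *Col7a1* in *Kmt2a*-HET 3 (108.2). In the hippocampus they were *Col8a1* (789.3), *Col8a2* (764.3) and *Col4a4* (173.7) in *Kdm5c*-KO 1, *Col23a1* in *Kdm5c*-KO 2 (134.2) and *Col16a1* in DM 3 (494). *Kdm5c*-KO 1 of the hippocampus and DM 1 of the amygdala had the highest choroid plexus marker sums of their regions, 104200 and 43930 normalised counts, and the part of that tissue in these values was not tested.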

How the results depend on the processing

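Spike-in size factors gave 0 called collagen genes with loss of *Kdm5c* in either region, in *Kdm5c*-KO against WT, DM against WT and DM against *Kmt2a*-HET, and with *Kmt2a* heterozygosity in the hippocampus, and 17 between regions. Over all genes they called 42 of 29832 and 19 of 29247 with loss of *Kdm5c*, and the fold of *Col5a3* in the amygdala was 0.71 and that of *Col22a1* in the hippocampus 1.32. They turned *Col5a3* to -0.16 in DM against *Kmt2a*-HET and to -0.13 with *Kmt2a* heterozygosity in the hippocampus. The median of all genes tested moved to -0.15 (amygdala) and -0.13 (hippocampus) with loss of *Kdm5c*. A p-adj of 0.05 gave 1 gene in DM against *Kmt2a*-HET in the amygdala and 0 with *Kmt2a* heterozygosity in the hippocampus. With edgeR these were 1 and 0, and loss of *Kdm5c* in the hippocampus gave 2. The low-count filter gave 2 in *Kdm5c*-KO against WT in the hippocampus. With the choroid plexus covariate, hippocampal counts were 2 with loss of *Kdm5c*, 2 in *Kdm5c*-KO against WT, 2 in DM against WT, 2 in DM against *Kmt2a*-HET and 0 with *Kmt2a* heterozygosity, and *Col8a1* turned to -0.20. Without the libraries over the marker limit they were 2 with loss of *Kdm5c*, 2 in DM against WT, 2 in DM against *Kmt2a*-HET and 0 with *Kmt2a* heterozygosity, *Col8a1* was -1.17, and in the amygdala DM against *Kdm5c*-KO gave 1 and *Kmt2a* heterozygosity 1. The cause was not tested.

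Replicate numbers did not pair genotypes (median correlation of same-numbered libraries 0.0893 for amygdala and -0.0036 for hippocampal libraries, 11 and 8 of 24 over 0.1), but the median was 0.285 and 0.266 for pairs of number 1. With the replicate block *Kdm5c*-KO against WT in the amygdala gave 6 called collagen genes, DM against *Kdm5c*-KO 1 in each region and *Kmt2a* heterozygosity in the amygdala 1. Loss of *Kdm5c* in the hippocampus gave 4 (3 higher, 1 lower) in place of 5, without *Col8a1* (2.39, p-adj 0.168). Over all genes the block raised these calls from 144 to 503, from 1 to 371 and 2 to 409, and from 0 to 203.

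Leaving out 1 library or replicate gave, for loss of *Kdm5c*, 4 to 8 amygdala genes (8 without *Kdm5c*-KO 3) and 3 to 9 hippocampal genes (3 without DM 4 or *Kdm5c*-KO 1, 9 without *Kdm5c*-KO 2). *Kdm5c*-KO against WT gave 2 to 5 and 1 to 4, DM against WT 3 to 5 and 1 to 1, DM against *Kmt2a*-HET 1 to 3 and 1 to 3, DM against *Kdm5c*-KO 0 to 1 and 0 to 2, *Kmt2a* heterozygosity 0 to 1 and 0 to 2, and the regions 35 to 38. *Kmt2a*-HET against WT, the departure from the sum and the region difference of the *Kdm5c* effect stayed at 0. *Col5a3*, *Col9a3* and *Col22a1* lost no call in *Kdm5c*-KO against WT, DM against WT or loss of *Kdm5c* where they had one. Depth limits genes such as *Col10a1* and *Col28a1*, and 4 mice a group limit small changes.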
